A study of Mus musculus with 12 samples.

Results

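Fibrillar collagens are the collagens that assemble into banded fibrils, and 6 of their genes were followed: Col1a1, Col1a2, Col3a1, Col5a1, Col5a2 and Col5a3. They were taken by gene name from a table of read counts that lists 50499 genes, and all 6 are reported in every comparison. They and the gene lists below were chosen with earlier results of these data known. The shares of all genes set beside them are thus descriptive. All 6 were among the 11934 genes that passed the filter on low counts. Type I collagen, built from the Col1a1 and Col1a2 chains, and type III collagen, built from Col3a1 chains, make up the bulk of the fibrils in a scarred liver, while type V collagen, built from the Col5a1, Col5a2 and Col5a3 chains, starts fibrils and limits their width. In liver these chains come mostly from hepatic stellate cells and portal fibroblasts, which make more of them in steatohepatitis (a fatty liver with inflammation) and other chronic injury. The chains are hydroxylated and folded inside the cell, trimmed and crosslinked outside it, and removed by proteases.

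The study sequenced liver RNA in a diet-induced mouse model of steatohepatitis to follow the loss of AATF, a regulator of transcription and ribosome formation. All animals were male wild-type C57Bl/6NCrl mice whose diets began at 6 weeks of age, and all received AAV8 particles (a liver-tropic viral vector) through the tail vein after 12 weeks on the diet. Livers were taken 12 weeks later. The 12 libraries fall into 4 groups of 3. Western siAATF mice ate a Western diet with sugar water and received the vector meant to silence Aatf, and Western null mice had the same diet with the null vector. Chow siAATF mice ate chow with normal water and received the silencing vector, and chow null mice had chow with the null vector. Both vectors carry the TBG promoter, which is directed at hepatocytes and not at the collagen-making cells named above. The labels number the replicates without stating that each is a separate mouse, so the tests see only how far these libraries vary, which may be technical.

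Libraries held between 1646853 and 13469819 counts, of which the 18S ribosomal RNA gene took 0.871% to 50.8%. Levels are given as CPM, counts scaled by TMM library size to a common total, and 3 counts correspond to between 0.185 and 1.69 CPM. Hepatocyte markers summed to at least 44173 CPM in every library. Aatf itself stood at 27.5 ± 0.599 CPM in Western siAATF and 26.3 ± 4.596 CPM in Western null, and at 34.8 ± 8.86 CPM in chow siAATF and 31.6 ± 5.13 CPM in chow null (SD, n = 3 each). It was thus not lower in the libraries labelled siAATF, and every direction below that involves the vector goes by the label alone. The library labelled Western siAATF replicate 1 held 19210 counts of 10 skeletal muscle genes, 4248 CPM in sum, against 0 to 33 counts in the other 11 libraries. The library labelled Western siAATF replicate 2 had the highest 18S share, 50.8%, and 4 libraries in all were above 25%. Results that rest on these libraries are given with and without them.

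The genes lie on 5 chromosomes of the mouse build GRCm39. Col3a1 (chr1:45350698-45388866, plus strand) and Col5a2 (chr1:45413491-45542442, minus strand) are neighbours. Col1a1 lies at chr11:94827050-94843868 (plus), Col1a2 at chr6:4505618-4541543 (plus), Col5a1 at chr2:27776393-27929522 (plus) and Col5a3 at chr9:20681353-20726363 (minus). Reads were counted over each gene's whole span, introns included. The span of Col1a2 is overlapped over 6.28% by LOC118567414 and that of Col5a1 over 9.70% by Gm13372.

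The 250 bases before the annotated start are shown for 3 genes whose counts behaved differently below: Col1a2 and Col3a1, whose count ratio overlapped between all groups, and Col5a3, which was not higher on the Western diet. They were read from the RefSeq promoter table of build GRCm38.p6, in which 4 of the 6 genes were matched, and run 5′ to 3′ on the gene's strand. Capitals mark matches, on either strand, to CCAAT (the NF-Y box), GGGCGG (the Sp1 box), TATAA (the core of the TATA box) and CAGACA (a Smad box).
Col1a2, chr6:4505368-4505617, plus strand: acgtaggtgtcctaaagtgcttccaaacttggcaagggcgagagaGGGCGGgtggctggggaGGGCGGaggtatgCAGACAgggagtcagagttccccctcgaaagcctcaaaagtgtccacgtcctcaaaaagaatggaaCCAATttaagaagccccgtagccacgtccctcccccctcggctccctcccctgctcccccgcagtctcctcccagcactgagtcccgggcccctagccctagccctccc
Col3a1, chr1:45311288-45311537, plus strand: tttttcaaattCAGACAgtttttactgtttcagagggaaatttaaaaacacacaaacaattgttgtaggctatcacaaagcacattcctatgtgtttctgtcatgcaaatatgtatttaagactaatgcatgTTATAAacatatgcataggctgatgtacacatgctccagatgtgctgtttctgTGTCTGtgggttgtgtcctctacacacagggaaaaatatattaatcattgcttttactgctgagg
Col5a3, chr9:20815068-20815317, minus strand: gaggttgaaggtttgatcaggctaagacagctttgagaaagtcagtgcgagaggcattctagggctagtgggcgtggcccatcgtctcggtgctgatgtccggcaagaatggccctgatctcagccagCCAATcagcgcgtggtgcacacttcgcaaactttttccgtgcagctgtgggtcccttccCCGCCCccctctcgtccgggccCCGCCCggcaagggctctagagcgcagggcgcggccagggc
The Col1a2 window held 1 NF-Y box at -109 to -105 from the start, 2 Sp1 boxes and 1 Smad box. The Col3a1 window, with 35.2% G and C against 62% in Col1a2, held 2 Smad boxes, and its TATA core matched both strands in overlapping letters between -118 and -113. The Col5a3 window held 1 NF-Y box at -122 to -118 and 2 Sp1 boxes. Col5a1 was matched too and is not shown. Its window held 2 Sp1 boxes and 1 Smad box at -36 to -31, and Col5a1 was not called between Western null and chow null. Whether any of these motifs goes with the diet difference was not tested. Of 32851 promoter windows of this length, 33.8% held the NF-Y box, 32.7% the Sp1 box, 22.8% the TATA core and 17.1% the Smad box, so none of these motifs is rare. A match is a string of letters and not a measured binding site.

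Western diet feeding was first set against chow in mice with the null vector, the first comparison the series names. Transcripts of 4 of the 6 genes rose: Col1a1 by 36.9-fold, Col1a2 by 16.3-fold, Col3a1 by 14.2-fold and Col5a2 by 9.47-fold. Col5a1 and Col5a3 did not pass the test, and Col5a3 was the one whose estimate lay below 0. Over all genes tested, 6.44% were higher at the same threshold, and the median log2 fold change was -0.03, against 3.53 over the 6 collagens. In bulk liver, more collagen-making cells and more RNA per such cell cannot be told apart.

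Among the type I chains, Col1a1 had 350, 200 and 264 CPM in the Western null libraries, against 3.20, 18.1 and 5.22 CPM in chow null. Every Western null library lay more than 10 times above the highest chow null library, and chow null replicate 2 stood well above the other chow null libraries. The log2 fold change was 5.21 ± 0.91 (SE, adjusted p = 0.00579 by the quasi-likelihood test of edgeR with Benjamini-Hochberg adjustment). Without chow null replicate 2 it was 5.98. Col1a2 had 262, 179 and 216 CPM in Western null and 6.28, 20.9 and 15.2 CPM in chow null. Its groups were far apart too, with a log2 fold change of 4.02 ± 0.65 (same test, adjusted p = 0.00278).

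Col3a1, the type III chain, had 591, 467 and 542 CPM in Western null, against 20.2, 72.3 and 24.99 CPM in chow null. The Western null libraries were close to each other, while chow null replicate 2 was again the highest of its group. The log2 fold change was 3.82 ± 0.65 (edgeR, adjusted p = 0.00331), and 4.55 without chow null replicate 2.

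The type V chains did not move alike. Col5a2 had 46.4, 36.5 and 39.5 CPM in Western null and 4.80, 2.82 and 4.44 CPM in chow null, far apart and each close within itself, with a log2 fold change of 3.24 ± 0.46 (edgeR, adjusted p = 0.00038). Its lowest library, chow null replicate 2, held 5 counts. Col5a1 had 70.1, 50.4 and 57.1 CPM in Western null and 10.97, 45.7 and 21.2 CPM in chow null. These groups did not overlap, but chow null replicate 2 came near the lowest Western null library, and the log2 fold change of 1.27 ± 0.50 did not pass (edgeR, adjusted p = 0.114). Col5a1 passed without chow null replicate 2 (1.86, adjusted p = 0.0224) and without Western siAATF replicate 2, which enters the shared estimate of spread (1.28, adjusted p = 0.0435). Col5a3 had 34.6, 31.0 and 25.4 CPM in Western null, against 22.9, 53.6 and 48.5 CPM in chow null. The groups overlapped, and the log2 fold change was -0.45 ± 0.36 (edgeR, adjusted p = 0.428). In all, 5 of the 6 genes had no overlap between Western null and chow null with Western null higher, against 17.7% of all genes.

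**Figure D1:**
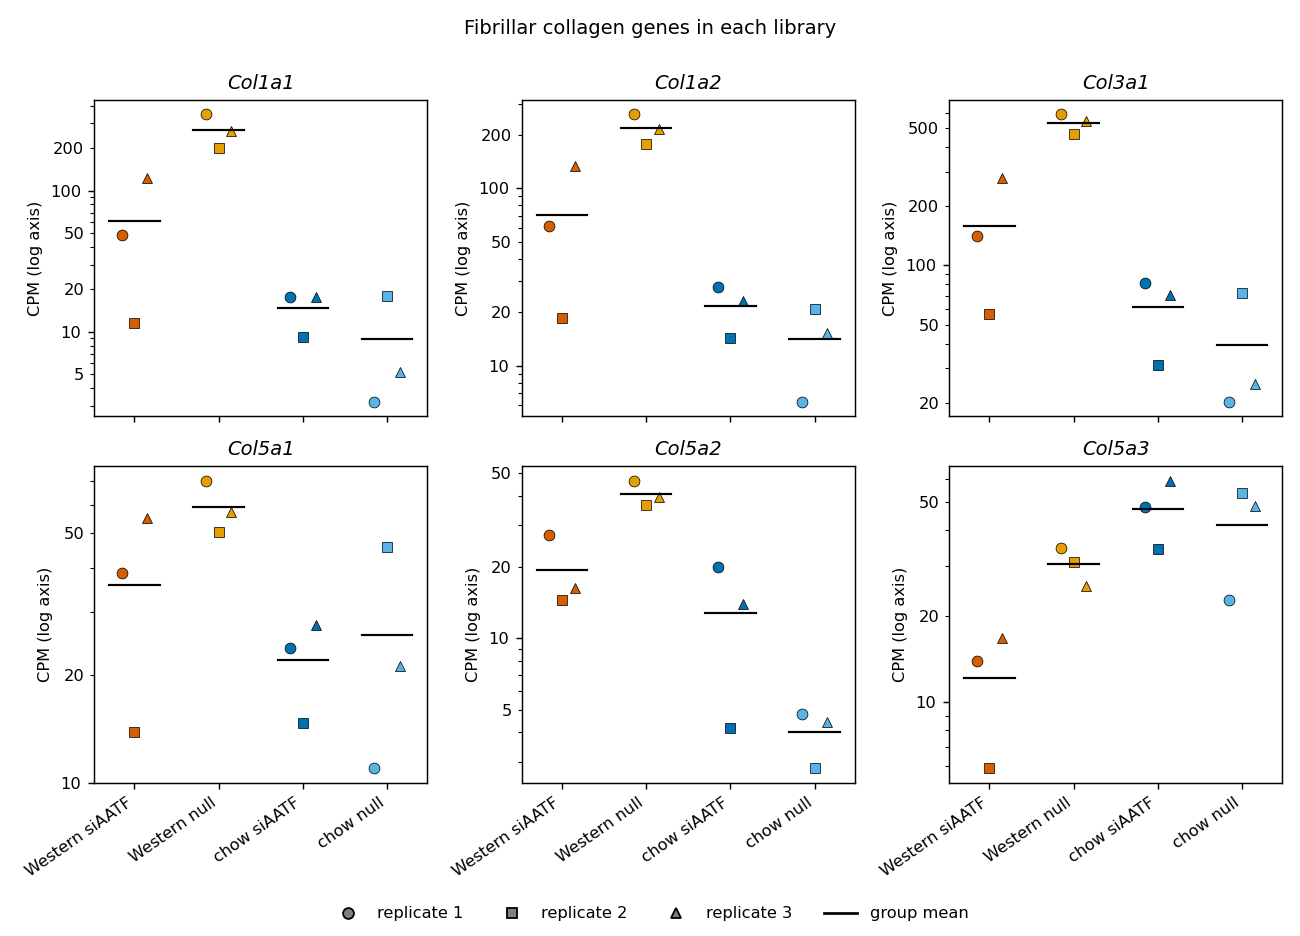
CPM of the 6 fibrillar collagen genes (log axes, each with its own range) in each library of the 4 groups, with symbols for replicates 1 to 3 and a bar at the group mean. Western null stands above the other groups for Col1a1, Col1a2, Col3a1 and Col5a2 with no overlap, and for Col5a3 the chow groups stand highest.

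Vector labels were compared next on the Western diet, the second comparison the series names. All 6 genes had lower fitted levels in Western siAATF than in Western null, between 0.222 and 0.599 of the Western null level, where 44.6% of all genes lay below 0 on the log2 scale, and 5 of them showed no overlap between the groups. None passed the test over all genes: edgeR called 0 of 6 higher and 0 lower, where 0.31% of all genes were higher and 0.561% lower. At an unadjusted p under 0.05, 5 of the 6 were lower, against 5.09% of all genes, and the share of all genes without overlap and lower was 7.87%. DESeq2 called 2 lower (Col3a1 and Col5a3) and limma-voom 0, beside 159 and 68 of all genes lower. The median log2 fold change over the 6 genes was -1.49, against 0.06 over all genes.

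Col1a1 had 48.7, 11.6 and 123 CPM in Western siAATF, against the 350, 200 and 264 CPM of Western null. All 3 Western siAATF libraries lay below Western null, but they differed among themselves by more than 10 times, with replicate 2 lowest and replicate 3 highest. The log2 fold change was -2.17 ± 0.77 (edgeR, adjusted p = 0.316). Col1a2 had 61.3, 18.6 and 133 CPM in Western siAATF, against 262, 179 and 216 CPM in Western null, in the same order of libraries, with a log2 fold change of -1.64 ± 0.58 (edgeR, adjusted p = 0.301).

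Col3a1 had 141, 56.3 and 278 CPM in Western siAATF, against 591, 467 and 542 CPM in Western null. It kept the order of libraries seen for the type I chains, and its log2 fold change was -1.76 ± 0.59 (edgeR, adjusted p = 0.270). Col5a1 had 38.7, 13.8 and 55.02 CPM in Western siAATF and 70.1, 50.4 and 57.1 CPM in Western null, and was the one gene whose groups overlapped (-0.74 ± 0.49, edgeR, adjusted p = 0.658).

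Col5a2 broke that order of libraries, with 27.4, 14.5 and 16.3 CPM in Western siAATF against 46.4, 36.5 and 39.5 CPM in Western null. Here replicate 1 was the highest Western siAATF library, and the log2 fold change was -1.06 ± 0.41 (edgeR, adjusted p = 0.339). Col5a3 had 13.9, 5.90 and 16.7 CPM in Western siAATF, against 34.6, 31.0 and 25.4 CPM in Western null. Its log2 fold change of -1.33 ± 0.38 had the smallest adjusted p of the 6 (edgeR, 0.144).

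None of these directions turned in 23 alternatives, which include leaving out Western siAATF replicates 1 and 2 together. The sizes did depend on the setting. The values came as near to 0 as -1.14 for Col1a1, -0.72 for Col1a2 and -0.10 for Col5a1. With all libraries they were -2.17, -1.64 and -0.74. Without replicate 1, the library with muscle genes, the log2 fold changes ran from -2.03 for Col1a1 to -0.81 for Col5a1 and edgeR again called 0 of 6. Without replicate 2, the library with the most 18S, they ran from -1.67 for Col1a1 to -0.34 for Col5a1, with 0 of 6 called. Without replicate 3, the library with the most collagen CPM, Col1a2 (-2.47, edgeR, adjusted p = 0.0168) and Col5a3 (-1.61, adjusted p = 0.0292) were called lower. Replicate 3 was the highest Western siAATF library for both genes, so leaving it out lowers their values by construction. In that fit 212 of all genes were called lower, against 67 with all libraries.

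**Figure D2:**
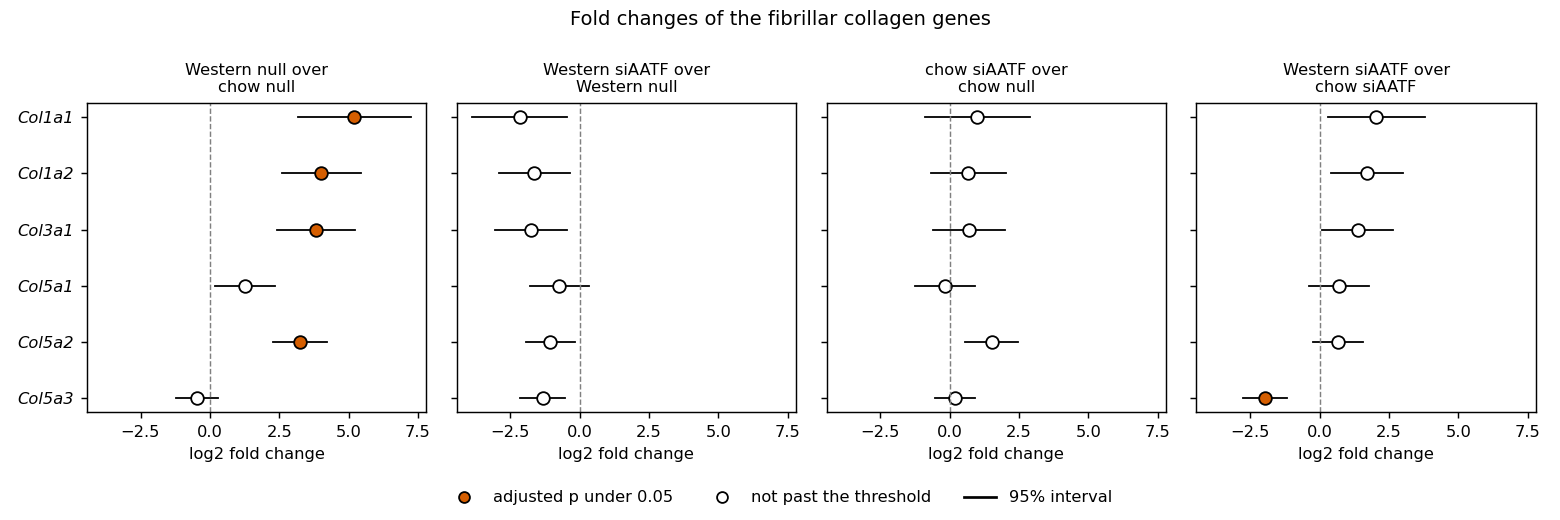
Log2 fold change of each fibrillar collagen gene (points, with 95% intervals) in 4 comparisons, filled where the adjusted p was under 0.05. Western null over chow null has 4 filled points on the right, and Western siAATF over Western null has 6 open points on the left of 0.

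On chow, the third comparison the series names, the vector label went with no called difference. Col1a1 had 17.7, 9.17 and 17.6 CPM in chow siAATF and 3.20, 18.1 and 5.22 CPM in chow null, and Col3a1 had 81.8, 31.2 and 70.4 CPM in chow siAATF and 20.2, 72.3 and 24.99 CPM in chow null. Both pairs overlapped, as did those of the other 4 genes. edgeR called 0 of 6, as it called 0% of all genes, with log2 fold changes from -0.17 for Col5a1 to 1.51 for Col5a2. Col5a2 alone had an unadjusted p under 0.05, which 1.06% of all genes had in the higher direction, and DESeq2 and limma-voom also called 0. It had 20.1, 4.19 and 14.0 CPM in chow siAATF and 4.80, 2.82 and 4.44 CPM in chow null, with chow siAATF replicate 2 inside the chow null range (1.51 ± 0.46, edgeR, adjusted p = 1).

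Whether the vector label went with another response to diet was asked by the interaction, the Western log2 fold change between vectors minus that on chow. It was below 0 for all 6 genes, as for 45% of all genes, from -3.16 ± 1.14 for Col1a1 to -0.57 ± 0.70 for Col5a1. None was called by edgeR (0 of 6, against 0.0922% of all genes lower), and 5 had an unadjusted p under 0.05 (3.86% of all genes, lower). DESeq2 called 1 lower and limma-voom called 0, beside 61 and 12 of all genes lower. Col5a2 came nearest, at -2.57 ± 0.62 (edgeR, adjusted p = 0.122). It passed with DESeq2 (adjusted p = 0.0109) and without chow siAATF replicate 2 (-3.08, edgeR, adjusted p = 0.0197). Without Western siAATF replicate 3, Col5a2 (-2.48, edgeR, adjusted p = 0.0497) and Col1a2 (-3.18, adjusted p = 0.0261) passed. In the fit without Western siAATF replicate 3, 152 of all genes were called lower, against 11 with all libraries.

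Between the diets under the silencing vector, 1 of the 6 genes was called. Col5a3 fell to 13.9, 5.90 and 16.7 CPM in Western siAATF, against 47.9, 34.4 and 59.4 CPM in chow siAATF, without overlap (-1.98 ± 0.38, edgeR, adjusted p = 0.0145), where 0.721% of all genes were lower, 0.763% higher and 8.36% lower without overlap. Col5a3 was also lower without Western siAATF replicate 1 (-2.13, edgeR, adjusted p = 0.0470). It did not pass the threshold without chow siAATF replicate 3 (-1.82, adjusted p = 0.0522) or in a fit of these 6 libraries alone (-1.95, adjusted p = 0.0895). Without the libraries above 25% 18S, a fit that leaves 1 chow null library, it was -1.61. Col1a1, Col1a2 and Col3a1 had log2 fold changes of 2.05 ± 0.79, 1.71 ± 0.60 and 1.38 ± 0.59 and overlapping groups, and none passed (edgeR, adjusted p from 0.195 to 0.291). Col1a2 passed without Western siAATF replicate 2, its lowest Western siAATF library (2.16, edgeR, adjusted p = 0.0221). In that fit 86 of all genes were called higher, against 91 with all libraries.

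Set against chow null, with diet and vector both different, Western siAATF had higher Col5a2 (2.19 ± 0.46, edgeR, adjusted p = 0.0198) and lower Col5a3 (-1.79 ± 0.38, adjusted p = 0.0211), where 1.26% of all genes were higher and 1.17% lower. Neither pair of groups overlapped, as for 8.97% of all genes in the higher and 8.36% in the lower direction. Both calls were lost without Western siAATF replicate 1 (Col5a2 1.84, adjusted p = 0.0991, and Col5a3 -1.93, adjusted p = 0.0635) and without chow null replicate 2 (2.07, adjusted p = 0.0546, and -1.59, adjusted p = 0.0505) or chow null replicate 3 (2.21 and -1.65, both adjusted p = 0.111). Col5a2 also lost its call without chow null replicate 1 (2.30, adjusted p = 0.0595). Leaving out the libraries above 25% 18S leaves 1 chow null library, so only log2 fold changes are given for that fit. They were 2.36 for Col5a2, -1.64 for Col5a3, 4.06 for Col1a1 and 3.10 for Col3a1, and Col1a2 kept its direction. With all libraries, Col1a1, Col1a2 and Col3a1 stood at 3.04 ± 0.86, 2.38 ± 0.62 and 2.07 ± 0.61 and did not pass (edgeR, adjusted p from 0.0736 to 0.101). Without Western siAATF replicate 2, all 3 passed, at 3.56, 2.85 and 2.48 (edgeR, adjusted p = 0.0192, 0.00365 and 0.0255). That library had the most 18S and was the lowest Western siAATF library in all 3 genes, so leaving it out raises these values. In that fit 299 of all genes were called higher, against 150 with all libraries. Without chow null replicate 2, the highest of its group for Col3a1, Col3a1 passed (2.79, edgeR, adjusted p = 0.0397).

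Ordered by mean level, Col1a1, Col1a2, Col3a1 and Col5a2 ran from Western null through Western siAATF and chow siAATF down to chow null. In each, Western null and Western siAATF did not overlap, while the neighbours below did. Col5a1 ran from Western null through Western siAATF and chow null to chow siAATF, with every neighbouring pair overlapping. Col5a3 had the other order, with chow siAATF highest, then chow null and Western null, which overlapped, and Western siAATF lowest and apart from Western null.

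The make-up of the fibrillar collagen counts, which is set within a library and so does not move with library size, differed most between diets in Col5a3. Of the counts of the 6 genes, Col5a3 took 3.93% ± 1.13 in Western siAATF and 2.66% ± 0.508 in Western null, against 27.2% ± 5.05 in chow siAATF and 33.0% ± 7.71 in chow null (SD, n = 3 each). The ranges of the Western and the chow libraries did not meet. A share also moves with the other genes in the sum. Between Western null and chow null, Col5a3 itself had a log2 fold change of -0.45 and was not called. Col1a1, Col1a2 and Col3a1 rose 36.9-, 16.3- and 14.2-fold there. Between Western siAATF and chow siAATF, Col5a3 itself was called lower (-1.98). Col1a1 took 14.7% ± 5.11 in Western siAATF, 23.2% ± 2.56 in Western null, 8.29% ± 0.204 in chow siAATF and 5.84% ± 2.28 in chow null. These shares rest on 378 to 12743 counts per library, and they compare one gene between libraries, not the amounts of chains, since the genes differ in length.

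**Figure D3:**
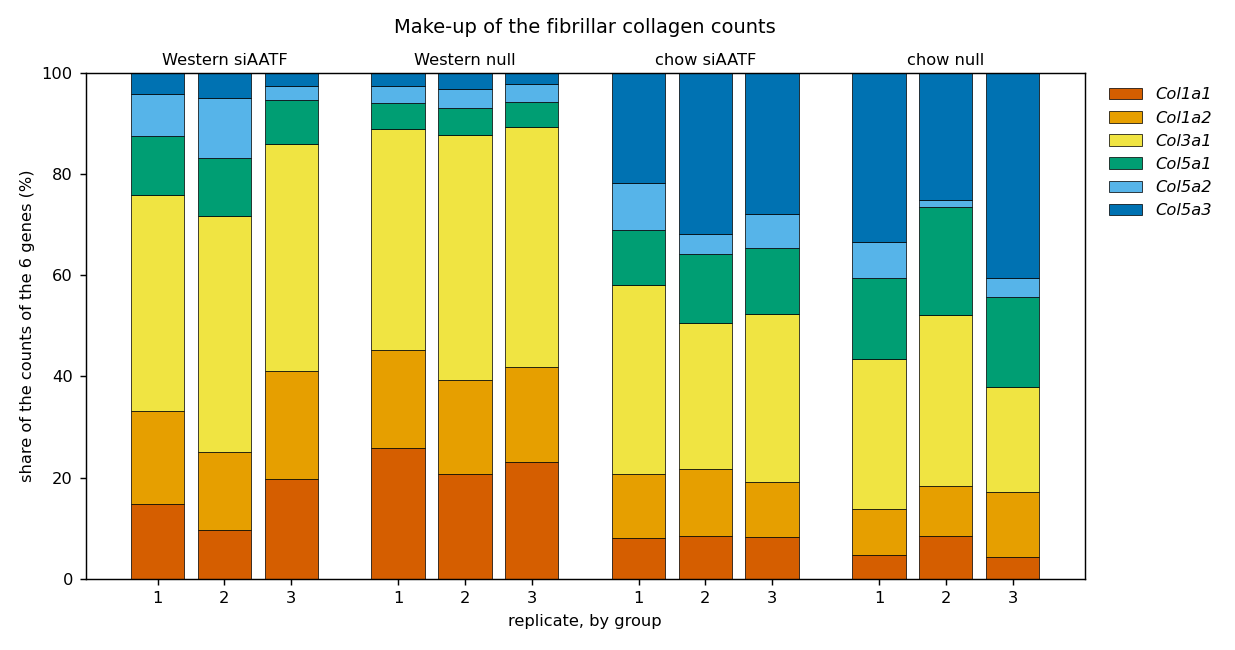
Share of the counts of the 6 genes (percent, stacked from Col1a1 at the bottom to Col5a3 at the top) in each library, by group and replicate. Col5a3 fills 21.9% or more of every chow library and 4.89% or less of every Western library.

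Ratios between pairs of chains showed which genes kept step. Col3a1 over Col1a2 was 2.47 ± 0.490 in Western siAATF, 2.46 ± 0.185 in Western null, 2.72 ± 0.467 in chow siAATF and 2.77 ± 0.988 in chow null (SD, n = 3 each), with overlap throughout. Col1a1 over Col1a2, both chains of type I collagen, ran from 0.622 to 0.927 in Western siAATF and from 1.12 to 1.34 in Western null, and from 0.638 to 0.757 in chow siAATF and 0.343 to 0.865 in chow null. Western null thus stood above the other groups, and Col1a1 differed more than its partner chain between Western null and each of Western siAATF and chow null. Col5a3 over Col5a1 ran from 0.304 to 0.426 in Western siAATF, 0.445 to 0.615 in Western null, 2.01 to 2.35 in chow siAATF and 1.17 to 2.28 in chow null, so that every chow library was above every Western library. Of 8 ratios in 4 comparisons, 32 tests in all, 13 reached the smallest p that an exact two-sided permutation test of 3 against 3 libraries allows, 0.1 (Benjamini-Hochberg adjusted p = 0.246), and no ratio can pass 0.05 in this design. Among the 13 were Col1a1 over Col1a2 between Western siAATF and Western null and between Western null and chow null, Col5a3 over Col5a1 in these comparisons and between Western siAATF and chow siAATF, and Col5a1 over Col1a1 in all 4 comparisons.

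**Figure D4:**
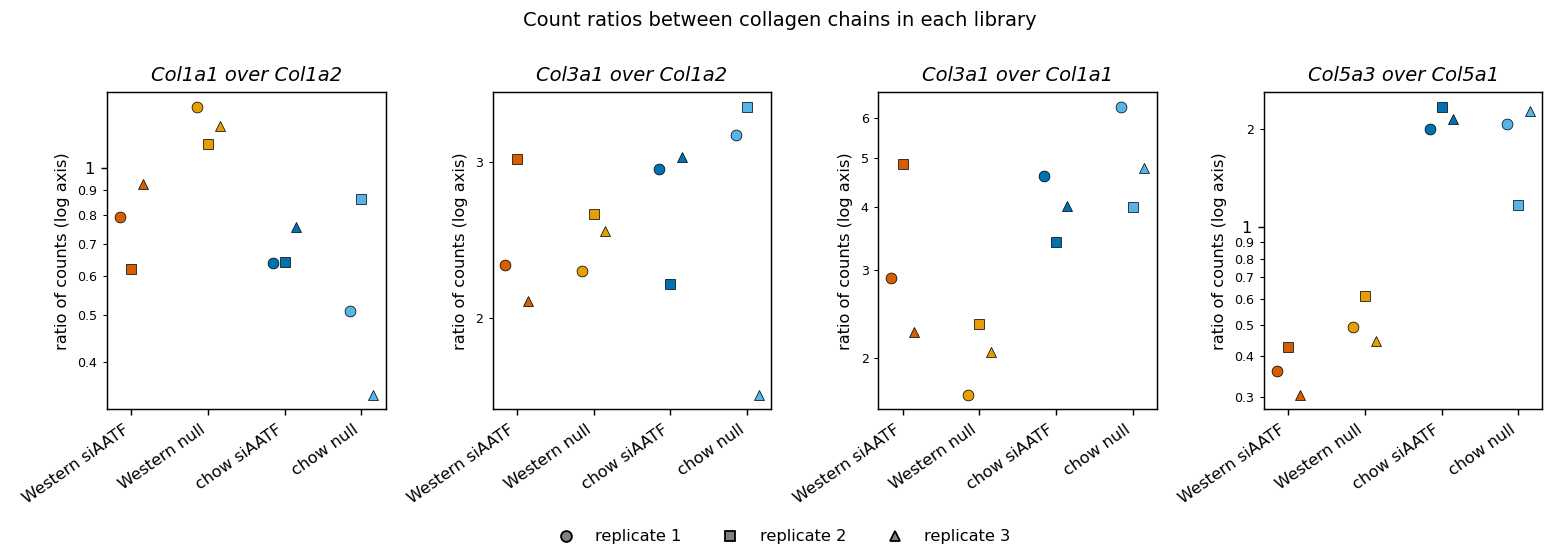
Ratio of counts between pairs of collagen chains (log axes) in each library, by group, with symbols for replicates. Col3a1 over Col1a2 overlaps across all groups, Col1a1 over Col1a2 is highest in Western null, and Col5a3 over Col5a1 is above 1 in every chow library and below 1 in every Western library.

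Among themselves, the 6 genes were compared by the root mean square difference of their centred log2 CPM profiles over the 12 libraries, where a smaller value means more alike. Col1a2 and Col3a1 were the closest pair, at 0.292, and Col1a1 and Col5a3 the farthest, at 2.40. Against the mean profile of the 6, Col3a1 lay nearest at 0.484 and Col5a3 farthest at 1.498. Of 9138 other genes with a mean of at least 5 CPM, the nearest to that mean profile were Col6a2 (0.291), Col6a3 (0.294) and Col6a1 (0.341), the chains of the microfibril-forming type VI collagen. Tagln2 (0.404), Serpinh1 (0.422), Col4a1 (0.450), H2-Eb1 (0.457) and Gsn (0.466) followed. All 12 points of a profile share the 4 groups, so these values describe likeness across these libraries only. All 8 genes were nearer to the mean profile than any of the 6 collagens that make it up.

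The partner genes of collagen assembly and turnover were described from 7 lists, of which 73 genes were tested. Between Western null and chow null, 24 of the 73 rose and 2 fell, shares of a comparison in which 6.44% of all genes rose and 6.77% fell. Of these 26 calls, 10 held in each of 12 fits that left out 1 library: Serpinh1, Adamts2, Bgn, Lum, Sparc, Postn, Mrc2, Timp2, Pepd and Pdgfrb. The other 16 were lost in at least 1 such fit.

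Of 19 tested genes of folding, hydroxylation and secretion, 3 rose and 1 fell. Serpinh1, the collagen chaperone Hsp47, averaged 39.9 ± 6.90 CPM in Western null and 6.52 ± 2.25 CPM in chow null (SD, n = 3 each), a log2 fold change of 2.71 ± 0.34 (edgeR, adjusted p = 0.00015). Plod2, a lysyl hydroxylase, rose by 2.86 ± 0.72 and Colgalt1, a collagen galactosyltransferase, by 0.68 ± 0.21, while Ppib, a proline isomerase that acts on procollagen and other secreted proteins, was lower (-0.84 ± 0.24). The span of Ppib is overlapped over 22.5% by neighbours, so part of its reads may be missing. The spans of Adamts2 (18.6%) and Timp2 (18.7%), which rose, are overlapped too. Whether overlap bears on these fold changes was not tested.

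Outside the cell, 5 of 10 tested genes of propeptide cleavage and crosslinking rose. Adamts2, the protease that trims the amino end of procollagens, rose by 1.61 ± 0.36 (edgeR, adjusted p = 0.00813). Among the lysyl oxidases, which crosslink fibrils, Loxl1 rose by 3.24 ± 0.72 and Lox by 4.26 ± 0.91, the Lox value on summed counts of 33 for Western null and 2 for chow null. For Lox and Loxl1 the call was lost without chow null replicate 3 (4.21, edgeR, adjusted p = 0.0569, and 3.13, adjusted p = 0.0583).

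Of 10 tested fibril-associated genes, 6 rose: Sparc, a collagen-binding matricellular protein (1.92 ± 0.30), Postn, periostin (2.14 ± 0.41), the small proteoglycans Lum (2.45 ± 0.47), Bgn (1.40 ± 0.25) and Dcn (1.10 ± 0.25), and Col14a1, a collagen that binds to fibrils (1.56 ± 0.35). Of 6 tested receptor and uptake genes 3 rose, Mrc2, the endocytic collagen receptor, by 2.41 ± 0.41, and the collagen receptor kinases Ddr1 by 2.37 ± 0.59 and Ddr2 by 1.15 ± 0.37. Of 6 tested breakdown genes 3 rose, the protease inhibitor Timp2 by 2.11 ± 0.39, the gelatinase Mmp2 by 2.28 ± 0.52 and the dipeptidase Pepd by 1.03 ± 0.22. A gelatinase, a dipeptidase and a protease inhibitor thus rose together.

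Of 21 tested drivers of collagen transcription, 4 rose and 1 fell. Pdgfrb, the platelet-derived growth factor receptor of stellate cells, rose by 1.66 ± 0.34 and Ccn2, a TGF-beta target, by 2.13 ± 0.61. The TGF-beta receptor gene Tgfbr2 and Pdgfa were called higher too, whereas Smad3, which carries the TGF-beta signal, was lower (-1.23 ± 0.28). Of 12 fits that left out 1 library, Pdgfrb kept its call in 12, Smad3 in 10, Ccn2 and Tgfbr2 in 7 and Pdgfa in 4. Tgfb1, the ligand, averaged 10.3 ± 0.712 CPM in Western null and 8.39 ± 3.51 CPM in chow null and did not pass. Of the other fibrillar chains, Col27a1 was the one tested and did not pass either (0.22 ± 0.39, edgeR, adjusted p = 0.746), Col11a1 had 1 count in all 12 libraries together and Col2a1 was listed at 0. Timp1, Timp3 and Timp4 lie inside the span of another gene and were listed at 0 in every library.

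On the Western diet, between the vector labels, 1 of the 73 partner genes was called lower by edgeR and 0 higher (0.561% and 0.31% of all genes), while 17 were lower and 3 higher at an unadjusted p under 0.05 (5.09% and 5.56% of all genes). DESeq2 called 5 lower and limma-voom 1, beside 159 and 68 of all genes lower. The called gene was Bgn, with 46.1 ± 8.08 CPM in Western siAATF and 129 ± 30.9 CPM in Western null (-1.49 ± 0.25, edgeR, adjusted p = 0.00827), and its call was lost without Western null replicate 1 (-1.33, adjusted p = 0.0554) or replicate 3 (-1.46, adjusted p = 0.0544). Mmp2 (-2.21 ± 0.52), Lum (-1.92 ± 0.47) and Serpinh1 (-0.91 ± 0.31) had values below 0 and did not pass (edgeR, adjusted p = 0.0646, 0.0700 and 0.252). On chow, edgeR, DESeq2 and limma-voom each called 0 of the 73 between the vector labels, with 2 lower at an unadjusted p under 0.05 by edgeR (1.32% of all genes).

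**Figure D5:**
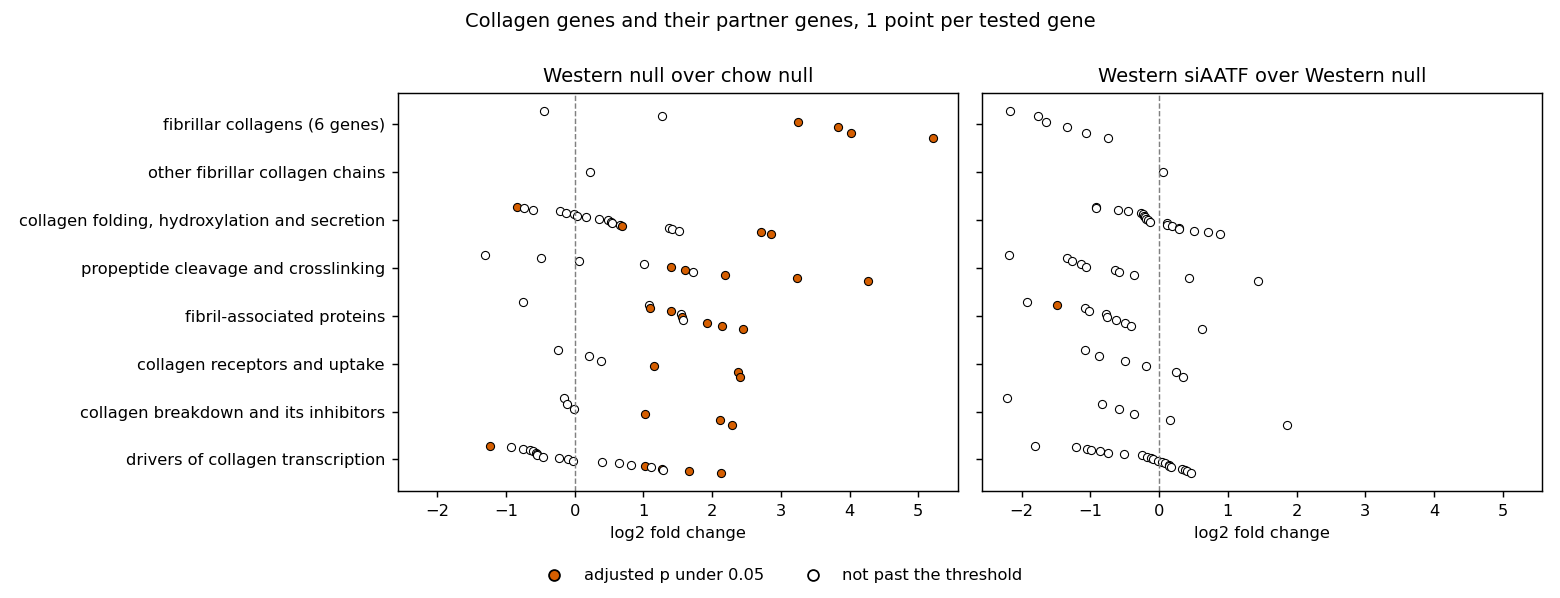
Log2 fold change of each tested fibrillar collagen and partner gene (1 point per gene, by list) between Western null and chow null and between Western siAATF and Western null, filled where the adjusted p was under 0.05. Filled points lie mostly right of 0 between Western null and chow null, and Bgn is the single filled point between Western siAATF and Western null.

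Markers of the cells that can make collagen were measured beside these results. Portal fibroblast and mesothelial markers, 5 tested of 10, summed to 11.1 to 31.6 CPM in Western siAATF and 36.5 to 65.7 CPM in Western null, against 11.8 to 15.5 CPM in chow siAATF and 5.83 to 10.3 CPM in chow null. In this sum Western null stood apart from the other groups, as it did for Col1a1, and 4 of the 5 rose between Western null and chow null, among them Eln, elastin (3.17 ± 0.54), and Fbln2, a fibulin (3.02 ± 0.55). Hepatic stellate cell markers, 11 tested of 12, summed to 339 to 540 CPM in Western siAATF, 434 to 521 CPM in Western null, 219 to 357 CPM in chow siAATF and 257 to 427 CPM in chow null. Of these, 3 rose between Western null and chow null (Cygb, Pdgfrb and Colec11), 1 fell (Hhip), and Lrat, the retinol-storing enzyme of stellate cells, was listed at 0, and its span lies inside another gene. Des, a stellate cell marker that muscle also expresses, stood at 175 CPM in Western siAATF replicate 1 and at 3.08 CPM in the lowest Western siAATF library. Markers of other cells moved in the same comparison, with 5 of 8 tested macrophage markers higher and 1 lower. Of 7 endothelial and 4 cholangiocyte markers, 3 and 2 were higher, and 3 of 8 hepatocyte markers were lower. Over all genes, 6.44% were higher and 6.77% lower there. Of the macrophage markers, Cd68 kept its call in each of 12 fits that left out 1 library. C1qb and Timd4 kept theirs in 9, C1qa and Lyz2 in 8 and Csf1r in 4. Of the others, Lyve1, Vwf and Serpina1c kept theirs in 12, Tspan8 and Fgb in 11, Pecam1 in 7 and Epcam and Hnf4a in 4. The stellate cell marker Hhip kept its call in 7. Between Western siAATF and Western null, the hepatocyte marker Serpina1c was higher (1.25 ± 0.25, edgeR, adjusted p = 0.0214), a call lost without any 1 of the 3 Western null libraries or of Western siAATF replicates 1 and 2 (adjusted p from 0.0573 to 0.206), and its reads may be shared with near-identical copies.

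Between Western siAATF and chow siAATF, where Col5a3 was called lower, both tested neutrophil markers, S100a8 and S100a9, were called higher. The 5 listed neutrophil genes summed to 75.9, 113 and 2.64 CPM in Western siAATF, against 0, 0.246 and 2.93 CPM in chow siAATF. Western siAATF replicates 1 and 2, the libraries that stand apart, held nearly all of it, and replicate 3 lay within the chow siAATF range. The S100a8 and S100a9 calls were lost in 10 and 11 of the 12 fits that left out 1 library (edgeR, adjusted p up to 0.208 and 0.197).

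Myofibroblast markers, 3 tested of 6, summed to 7.72 to 270 CPM in Western siAATF, 26.9 to 30.6 CPM in Western null, 12.2 to 25.5 CPM in chow siAATF and 4.91 to 17.5 CPM in chow null. The highest value was that of the Western siAATF library with muscle genes, where Tpm2, which muscle also expresses, stood at 262 CPM. Acta2, the smooth muscle actin of myofibroblasts, averaged 1.84 ± 1.66 CPM in Western siAATF and 4.70 ± 1.47 CPM in Western null, and 3.98 ± 3.35 CPM in chow siAATF and 2.10 ± 1.61 CPM in chow null, and did not pass between Western null and chow null. The part of these cell markers in the collagen values was not tested.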

How the data were processed

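Liver RNA was sequenced in 12 libraries, 3 in each of 4 groups taken from the sample titles. The 6 collagens and all gene lists were chosen with earlier results of these data known. The skeletal muscle list was added after the data were seen. The table deposited by the authors gives whole-number counts per gene, made with STAR 2.7.11 and featureCounts 2.0.1 on GRCm39, per the submitters' processing notes. The length given is that of the whole gene, introns included, in 100% of its entries. The strand setting is not given in the sources used here, and reads of overlapping genes cannot be told apart.

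From the counts, edgeR 4.0.16 (R 4.3.3) gave CPM with TMM scaling. Genes were kept with filterByExpr by group, and a quasi-likelihood test (robust, 8 residual degrees of freedom) was fitted to all 12 libraries, with Benjamini-Hochberg adjustment over the 11934 genes kept and a threshold of 0.05. The steps were tested on simulated data. Replicates differed by at least 10.3 chi-square per degree of freedom over all genes, the 18S gene included, and none was treated as a copy of another. This value cannot tell separate mice from separate preparations of the same liver. The floors (3 counts) cover counting error only, as reads carry no molecular identifiers. The SEs and intervals of the log2 fold changes come from the quasi-likelihood fit. They thus also include the spread between these libraries, which may be technical. Named genes are the 6 collagens, up to 4 called genes per list by adjusted p (or, with none called, up to 2 by unadjusted p), Aatf, detected cell markers and the 8 genes nearest in profile. Exceptions, chosen after their values were seen, are Dcn, Col14a1, Tgfb1, Timp1, Timp3, Timp4, Col11a1, Col2a1 and, between the vector labels, Lum. Profiles used log2 CPM with a prior count of 2, computed from the deposited counts. Alternatives were other scalings, no filter, DESeq2 1.42.0, limma-voom (limma 3.58.1), fits of only the groups compared, a replicate block, thinning to equal depth, leaving out libraries above 25% 18S, and leaving out each library in turn.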

Additional observations from a re-analysis of the deposited data

How the results depend on the processing

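Between Western null and chow null, Col1a1, Col1a2, Col3a1 and Col5a2 were called in 23 of 23 alternatives, Col5a1 in 7 and Col5a3 in 0. The count of called collagens, 4 with all libraries, ran from 4 to 5 when 1 library was left out. Between Western siAATF and Western null (0 called) it ran from 0 to 2, on chow (0) from 0 to 0, between Western siAATF and chow siAATF (1) from 0 to 2, between Western siAATF and chow null (2) from 0 to 5, and for the interaction (0) from 0 to 2. In the same order, from Western siAATF against Western null on, the counts were 5, 1, 4, 5 and 5 with no low-count filter. With DESeq2 they were 2, 0, 2, 5 and 1. Genes called over the whole table rose in these settings too. From 104, 0, 177, 290 and 23 they went to 572, 33, 836, 948 and 331 with no filter. With DESeq2 they went to 285, 1, 513, 700 and 124. With only the groups compared, Western siAATF against chow siAATF gave 0 and against chow null 0, beside 17 and 24 of all genes. For the last, limma-voom gave 1, beside 284 of all genes. Leaving out libraries above 25% 18S leaves 1 chow null library, so no count of calls is given for that setting alone. It is among the 23 alternatives above. The interaction gave 1 after thinning, beside 13 of all genes. Leaving out Western siAATF replicates 1 and 2 together, chosen after seeing the data, leaves 1 library in that group, which is assumed to vary like the others. Only log2 fold changes are thus given for it. Western siAATF against chow siAATF gave 3.07 for Col1a1, 2.62 for Col1a2 and -1.51 for Col5a3, the one gene called there with all libraries. Against chow null the values were 4.13 for Col1a1, 3.32 for Col1a2, 2.91 for Col3a1, 1.90 for Col5a2 and -1.30 for Col5a3. The cause of these shifts was not tested. Same-numbered libraries deviated together in 1 of 18 pairs (r above 0.1, median -0.05), so the numbers do not pair them. With a replicate block the called collagens were 4, 0, 0, 1, 2 and 0, no different from the fit without it, while genes called over the whole table were 1157 against 1577, 64 against 104, 0 against 0, 71 against 177, 141 against 290 and 14 against 23. Directions turned for values that were not called in 3 genes. Col5a1 between chow siAATF and chow null was 0.11 with limma-voom and -0.56 to 0.43 with 1 library left out, above 0 without chow siAATF replicate 2 (0.079) or chow null replicate 2 (0.43). Col5a3 there was -0.030 without libraries above 25% 18S and -0.11 (without chow null replicate 1) to 0.40 with 1 left out. Aatf between Western siAATF and Western null was -0.024 after thinning and -0.089 (without Western null replicate 2) to 0.19 with 1 left out. Without Western siAATF replicates 1 and 2, the Col5a1 interaction was 0.039. S100a8, called higher between Western siAATF and chow siAATF with all libraries, turned to -3.10 there, on 0 counts in the Western siAATF library left. Of 1206 values of partner and marker genes under alternatives, 988 kept direction and call, 217 lost the call and 1 reversed. Of the 8 genes nearest in profile, 5 to 8 were shared under alternatives. Other scalings moved the median of all genes by less than 0.1. Depth limits the lowest values, 5 counts for Col5a2 and 28 for Col1a1 in a chow null library.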
